A study of Mus musculus with 3 samples.

Results

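The 8 genes described here encode parts of the complement system: C1qa, C1qb and C1qc, the chains of C1q; C3, the central component; Cfb, factor B; Cfp, properdin; and C3ar1 and C5ar1, the receptors for the fragments C3a and C5a. They were taken by name from the 32285 genes of the count matrices, without reference to their measured values. RNA of single cells sorted as live, nucleated and CD45-positive from whole mouse aortas, adventitia included, was counted in 3 libraries, 1 for each of 3 groups. All mice, the controls included, are labelled Apoe-/- on the C57BL/6J background, a strain that clears lipoproteins poorly and develops atherosclerosis. The control mice (Ctrl) are labelled only as such, the HHcy mice were given homocysteine at 1.8 g/L in drinking water for 4 weeks, and the WD mice were fed a western diet for 4 weeks. The study's title names acceleration of atherosclerosis by homocysteinemia as its subject. The labels do not give the age or sex of the mice or how many were pooled. Each group had a single library, so groups could not be tested against each other, and every interval below covers counting error only.

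Complement is a cascade of plasma and tissue proteins that tags particles for uptake and calls in leukocytes. C1q, built from its 3 chains in equal number, opens the classical pathway by binding antibody complexes and dying cells, and in tissues it is made largely by macrophages. C3 is cleaved by convertases; factor B supplies the protease of the alternative pathway convertase and properdin stabilises it, so that both amplify C3 cleavage. The small fragments C3a and C5a act on myeloid cells through C3ar1 and C5ar1. The liver makes most of the C3 and factor B of plasma, and macrophages, neutrophils and fibroblasts are known local sources.

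The 3 C1q genes lie side by side on the minus strand of chromosome 4 in GRCm38, the assembly of the mm10 build named in the submitters' processing notes, with coordinates from the GENCODE annotation. C1qb occupies chr4:136880129-136886187, C1qc chr4:136889804-136893065 and C1qa chr4:136895917-136898803, a stretch of 18675 bases in all. C3 lies at chr17:57203970-57228136, Cfb at chr17:34856374-34862518, Cfp at chrX:20925454-20931555, C3ar1 at chr6:122847138-122856161 and C5ar1 at chr7:16246743-16259540, all on the minus strand and all protein coding. Of the span of Cfb, 6107 bases overlap a longer gene model on the same strand, Gm20547, which the matrices do not list, so UMIs from that model could not be told apart from those of Cfb.

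RefSeq promoter entries (GRCm38.p6) were matched for 6 of the 8 genes: C1qb, C1qc, C3, Cfp, C3ar1 and C5ar1. The 250 bases before the RefSeq start of C1qb, C1qc and C3 are printed 5′ to 3′ on the gene's strand, because C1qb and C1qc shared one pattern of cells and C3 another. RefSeq starts can differ from the GENCODE spans given above. The C1qc window lies partly inside the GENCODE span of C1qc, and its GTCAGC falls in that part. The windows searched for C3ar1 and C5ar1 also overlap the GENCODE spans of their genes. Capitals mark 3 motifs. GAGGAA, or TTCCTC when read on the other strand, is the core of the motif of the myeloid factor PU.1. The second, GTCAGC, is part of the motif of MAF factors, and TTGCGNAA is a motif of C/EBP factors. All were searched on both strands, and they do not overlap in these windows. C1qb is at chr4:136886201-136886450, C1qc at chr4:136892915-136893164 and C3 at chr17:57228137-57228386, all minus strand.
C1qb promoter: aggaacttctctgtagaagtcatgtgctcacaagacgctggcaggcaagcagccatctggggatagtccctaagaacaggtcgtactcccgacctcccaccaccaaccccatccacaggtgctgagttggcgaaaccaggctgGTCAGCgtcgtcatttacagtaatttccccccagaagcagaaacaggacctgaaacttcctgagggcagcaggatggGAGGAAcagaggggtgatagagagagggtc
C1qc promoter: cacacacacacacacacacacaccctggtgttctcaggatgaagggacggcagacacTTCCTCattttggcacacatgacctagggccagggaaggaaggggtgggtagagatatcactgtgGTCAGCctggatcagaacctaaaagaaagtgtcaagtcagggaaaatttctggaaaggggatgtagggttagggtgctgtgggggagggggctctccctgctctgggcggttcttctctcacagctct
C3 promoter: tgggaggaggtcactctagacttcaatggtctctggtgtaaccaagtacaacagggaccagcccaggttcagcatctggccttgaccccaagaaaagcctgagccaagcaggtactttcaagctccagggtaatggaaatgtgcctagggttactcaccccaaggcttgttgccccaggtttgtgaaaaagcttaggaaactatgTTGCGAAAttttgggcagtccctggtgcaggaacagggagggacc

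C1qb and C1qc each held 1 match to GAGGAA, at -30 and, on the reverse strand, -193 from the RefSeq start, and 1 match to GTCAGC, at -107 and -128. C3 held 1 match to TTGCGNAA at -45 and none to the other 2 motifs. None of the 3 motifs was found in the same windows of Cfp, C3ar1 and C5ar1. Among 32851 RefSeq promoters of the same length, 23.3% held GAGGAA, 12.9% GTCAGC and 0.670% TTGCGNAA. A match describes the letters of the window and does not show that a factor binds there.

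The libraries held 7512, 9753 and 8557 called barcodes and 66789257, 105180370 and 93164076 UMIs (unique molecular identifiers, each 1 captured RNA molecule) in the order Ctrl, HHcy and WD, which holds for all triplets below. After quality limits and removal of barcodes with markers of more than 1 lineage, 5372, 6383 and 5294 cells were used. Ptprc, which encodes CD45, was at 745, 686 and 636 CPM, its UMIs scaled to a common total in each library. Apoe, the gene the strain lacks, was at 16.3, 374 and 19.3 CPM, so 1 library went against its label and is called the library labelled HHcy throughout. Among macrophage/monocyte-like cells, 1, 185 and 2 cells carried 10 or more Apoe UMIs, and values without these cells are given beside the results in macrophage clusters where they were common. Between 20 and 24 barcodes were shared by each pair of libraries.

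Cells were grouped into 9 classes by marker genes, with all complement genes kept out of the clustering and the markers. The macrophage/monocyte-like class held 2008, 1243 and 2703 cells and the B cell-like class 2179, 3613 and 1222. Conventional dendritic-like cells numbered 478, 288 and 419, neutrophil-like cells 174, 376 and 250, T cell-like cells 147, 191 and 146, and fibroblast-like cells 30, 83 and 169. Fibroblasts should be absent from a CD45 sort: Col1a2, Col3a1 and Dcn led this cluster, and Ptprc was detected in 18.1% of its cells. Mast, endothelial and plasmacytoid dendritic-like cells were at most 37 in a library and are not compared. Expression is given as CPM, the UMIs of a gene summed over the cells of a class and divided by all UMIs of that class. In such counts from the 3′ end, genes can be captured with unequal efficiency, so levels are compared between cells and libraries for the same gene.

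RNA for C1q was concentrated in macrophages. Summed over the 3 chains, C1q reached 4946 (95% interval 4914 to 4979), 6567 (6521 to 6612) and 8066 (8034 to 8099) CPM in macrophage/monocyte-like cells. The next class, conventional dendritic-like cells, was at 689, 484 and 1137 CPM. T cell-like cells, which are not known to make C1q, were at 214, 207 and 437 CPM, neutrophil-like cells at 137, 187 and 353, fibroblast-like cells at 99.3, 102 and 165, and B cell-like cells at 84.9, 104 and 169. The order of the classes from macrophages to T cells was the same in all 3 libraries, and the levels of B cells and fibroblasts lay close together at the bottom.

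The low C1q level of B and T cells is used here as a stand-in for the background of droplet libraries, which was not measured. C1qa was detected in 23.5%, 27.3% and 39.4% of B cell-like cells, whose median depth was 7509, 6413 and 6692 UMIs. After each cell was thinned to 1000 UMIs, the shares in B cells were 4.50%, 4.35% and 6.96%. Resident-like macrophages, at a median of 4750, 6000 and 6269 UMIs, had C1qa in 99.6%, 98.5% and 98.3% of cells, and in 96.4%, 97.6% and 97.7% after thinning. Detection in macrophages was thus near complete at a depth where it was rare in B cells.

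Within the macrophage/monocyte-like class, 2 monocyte clusters and several macrophage clusters separated sharply by C1q. Resident-like macrophages, led by Cd163, Lyve1 and Folr2, were at 11465, 14910 and 14647 CPM. Foamy-like macrophages led by Trem2, Ms4a7 and Mmp12, called Trem2+ foamy-like below, were close to them, at 10935, 13551 and 13086 CPM. Cavity-like macrophages, led by Prg4 and Alox15 and named for their likeness to macrophages of body cavities, were at 7115, 10502 and 9373 CPM. A second foamy-like cluster, led by Gpnmb and Spp1, was lower, at 2053, 5419 and 2993 CPM. Resident-like cells were the highest of these 4 clusters in every library, and the Gpnmb cluster the lowest.

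Monocytes carried little C1q. Non-classical monocyte-like cells, with Treml4 and Ace, were at 187, 215 and 411 CPM, and classical monocyte-like cells, with Vcan, Chil3 and Ly6c2, at 218, 246 and 406 CPM. Both lay near the level of T cells of the same library (214, 207 and 437 CPM) and above that of B cells (84.9, 104 and 169 CPM). Because T cells are not known to make C1q, a level near theirs is read neither as expression nor as its absence. CPM also depends on the depth of the cells. Summed C1q had 155, 268 and 330 UMIs in 147, 191 and 146 T cells. It had 363, 548 and 777 UMIs in 195, 182 and 169 classical monocyte-like cells. Whether the monocyte level is background was not tested. All 3 chains were detected together in 96.0%, 95.9% and 95.5% of resident-like cells and in 94.1%, 96.4% and 98.4% of Trem2+ foamy-like cells. The same was true of 3.60%, 5.50% and 12.6% of non-classical monocyte-like cells. In the Gpnmb foamy-like cluster, 37.1%, 52.9% and 52.9% of cells carried all 3 chains, so that this cluster was mixed.

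The chains did not keep one ratio across macrophages. C1qa made up 42.3%, 42.9% and 43.0% of the summed C1q UMIs of resident-like cells, and C1qb 30.8%, 33.1% and 32.9%. In Gpnmb foamy-like cells the share of C1qb was higher, at 47.8%, 40.7% and 45.3%, and that of C1qa lower, at 30.1%, 36.1% and 35.1%. A cluster led by Retnla and Lyz1 had 51.3%, 55.9% and 49.5% C1qb. The higher C1qb share in these clusters held in all 3 libraries, and the exact binomial intervals of C1qb in resident-like and Gpnmb foamy-like cells did not overlap in any of them. In B cells the share of C1qa was 40.2%, 41.6% and 41.3%, near that of the whole macrophage/monocyte-like class, 38.9%, 39.9% and 40.0%.

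**Figure D1:**
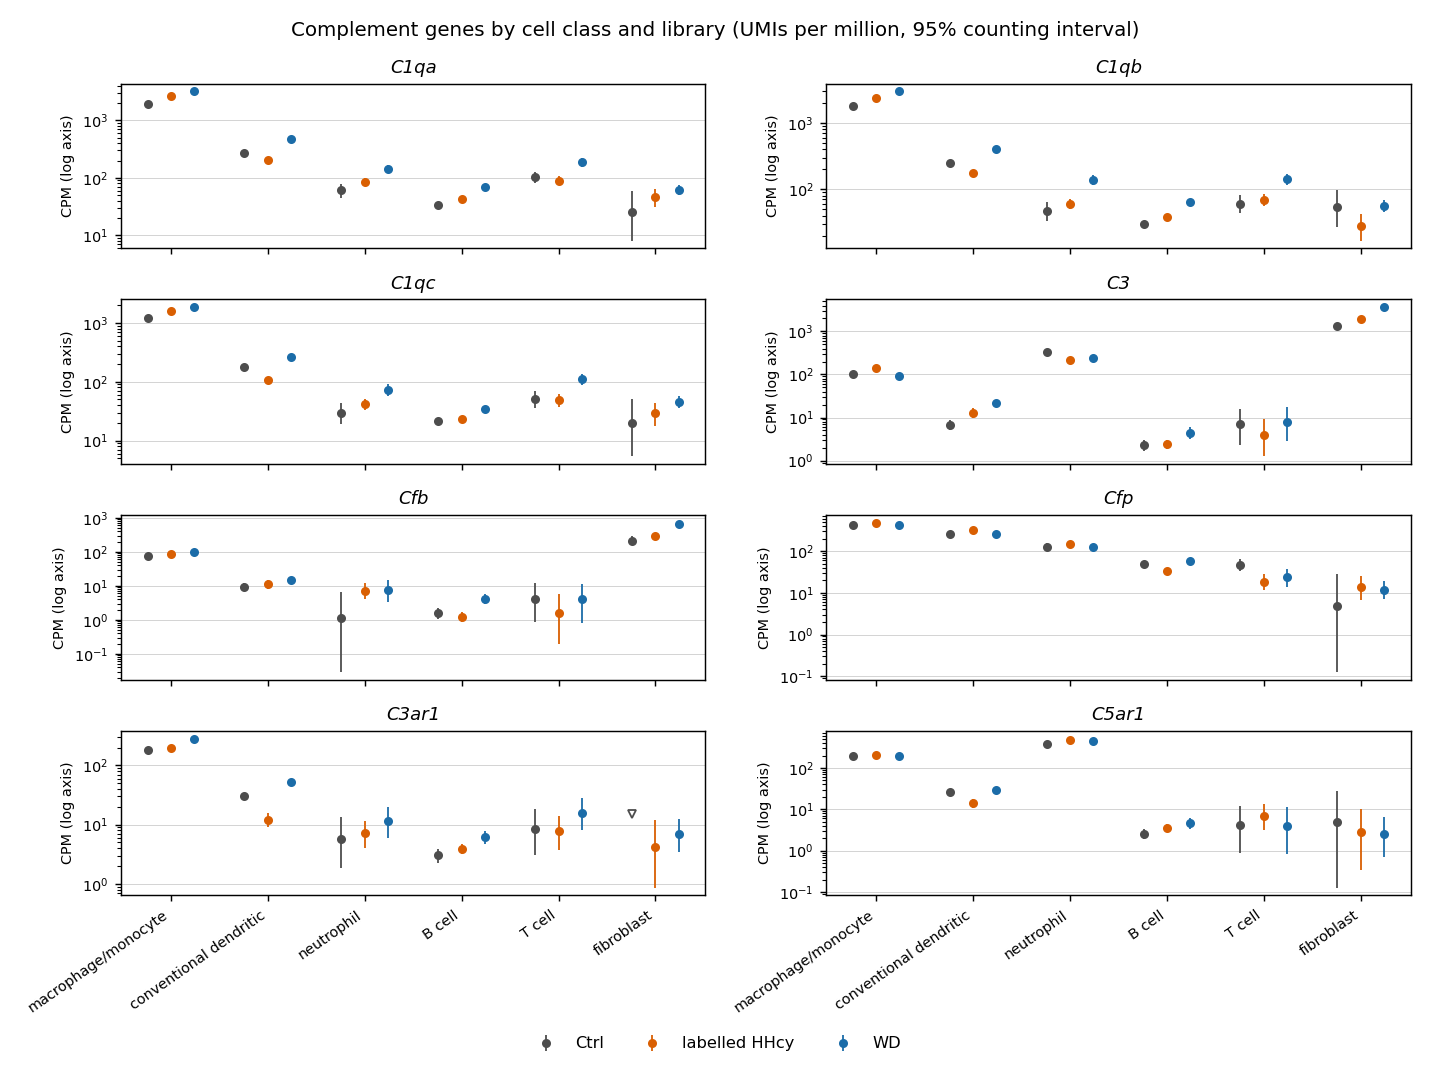
Level of each of the 8 genes in 6 cell classes, in CPM on a log axis, with 1 point per library, bars for exact Poisson 95% intervals and an open triangle at the limit of 3 counts where no UMI was found. The C1q chains and C3ar1 peak in macrophage/monocyte-like cells, C3 and Cfb in fibroblast-like cells and C5ar1 in neutrophil-like cells.

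C3 had a different set of sources. Fibroblast-like cells were highest, at 1311 (95% interval 1158 to 1479), 1993 (1891 to 2098) and 3627 (3534 to 3722) CPM. Neutrophil-like cells followed at 333, 222 and 242 CPM, and macrophage/monocyte-like cells at 105, 139 and 93.2 CPM. Conventional dendritic-like cells (6.72, 12.6 and 21.2 CPM), T cells (6.91, 3.87 and 7.95) and B cells (2.28, 2.42 and 4.47) held little. The order fibroblast, neutrophil and macrophage was the same in every library.

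C3 in myeloid cells was unlike C1q in its place. Classical monocyte-like cells had 282, 303 and 345 CPM and non-classical ones 156, 178 and 189, whereas resident-like macrophages had 12.1, 17.9 and 26.7 and Trem2+ foamy-like macrophages 16.4, 22.4 and 21.9. Cavity-like macrophages, at 159, 179 and 176 CPM, carried both C1q and C3. They were not alone in this. C3 was at 118, 301 and 97.4 CPM in Gpnmb foamy-like cells, which also held C1q. An unnamed macrophage cluster led by Apoc2, Fcgr4 and Sirpb1c had C3 at 90.6, 103.4 and 97.2 CPM, with summed C1q at 4670, 5193 and 7009. Among neutrophils, cells led by Camp and Ngp, genes of granule proteins, had 499, 393 and 442 CPM, and cells led by Cstdc4 had 128, 159 and 170. The monocyte clusters and the neutrophil cluster led by Camp and Ngp were above the resident-like and Trem2+ foamy-like clusters in every library, with intervals apart.

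Cfb, which supplies the protease of the alternative convertase, was highest in fibroblast-like cells (214, 293 and 680 CPM) and in cavity-like macrophages (378, 274 and 397 CPM). The order of these 2 differed between libraries: cavity-like cells led in the control, the intervals overlapped in the library labelled HHcy (255 to 335 and 248 to 303 CPM), and fibroblasts led under WD. Resident-like macrophages were at 75.7, 72.4 and 148 CPM, and classical and non-classical monocyte-like cells between 38.4 and 83.0. Neutrophils had almost none, at 1.14, 7.09 and 7.60 CPM, although they carried C3. B cells were at 1.54, 1.23 and 4.17 CPM, with a UMI in 1.24%, 0.913% and 2.78% of cells.

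Cfp, the gene of properdin, was a gene of myeloid cells and was near the background in fibroblasts, at 4.97, 13.8 and 12.0 CPM. Cavity-like macrophages were highest of all named clusters at 2108, 1842 and 2014 CPM. The cluster led by Retnla and Lyz1 followed at 912, 999 and 1007 CPM, then resident-like macrophages at 569, 571 and 654. Type 2 conventional dendritic-like cells had 459, 541 and 395 CPM, more than the type 1 cells at 117, 114 and 125. Trem2+ foamy-like macrophages were lower, at 208, 232 and 267 CPM, and neutrophils had 127, 148 and 124.

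A further source of Cfp was found among B cells. Immature B cell-like cells had 226, 190 and 230 CPM, whereas the other B cell clusters lay between 18.9 and 43.3 CPM. After thinning to 1000 UMIs, Cfp was detected in 18.0%, 16.8% and 17.9% of the immature cells and in 3.69%, 1.66% and 1.58% of the largest B cell cluster. The 2 differed in the same direction in all 3 libraries.

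Counted as shares of all UMIs in the cells used, macrophages and monocytes held most of the Cfp RNA, with 69.2%, 64.5% and 80.9%, and conventional dendritic-like cells 18.6%, 16.1% and 12.6%. For C3 the main holder differed between libraries: macrophages and monocytes had 70.2%, 44.4% and 30.5% and fibroblast-like cells 9.89%, 38.0% and 62.6%. For Cfb, macrophages and monocytes had 89.3%, 75.4% and 69.4% and fibroblast-like cells 2.90%, 15.1% and 25.1%. These shares move with the number of cells of each class in a library, and the number of fibroblasts that passed a CD45 sort is not a measure of fibroblasts in the aorta.

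**Figure D2:**
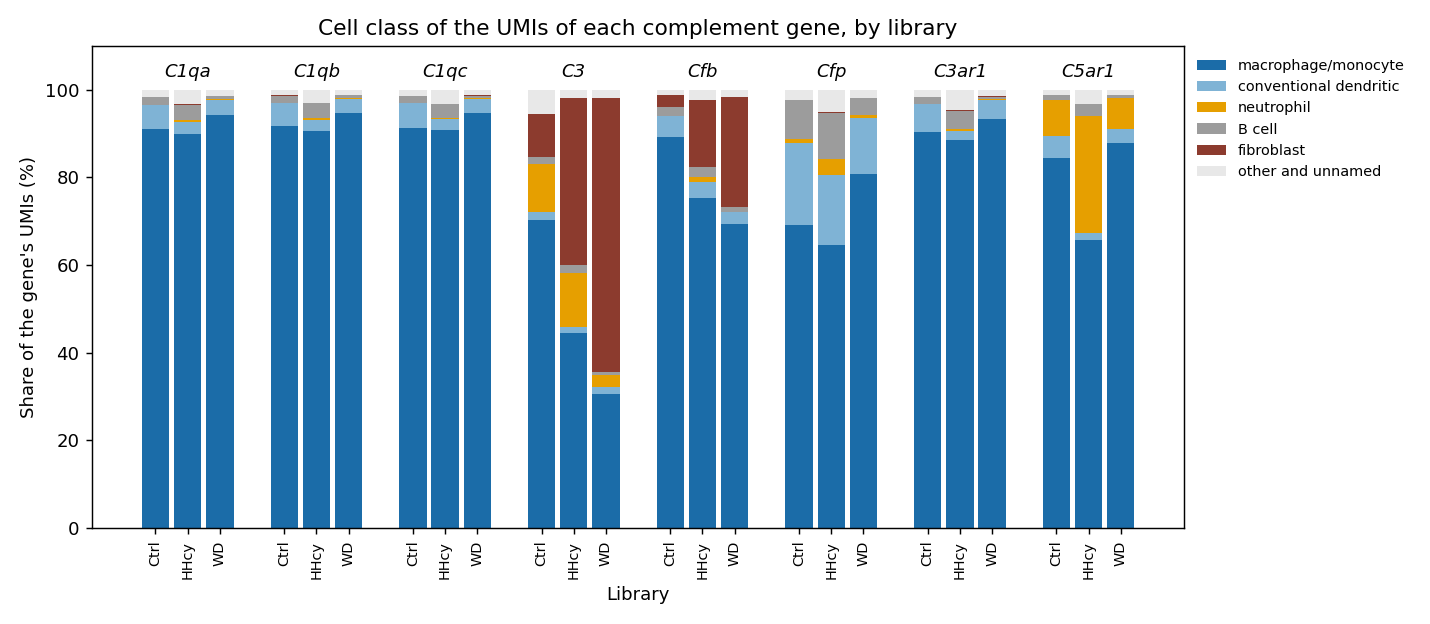
Share of all UMIs of each gene held by each cell class, in percent of the cells used, with 1 stacked bar per library and colours for classes. The share of C3 in fibroblast-like cells is 9.89% for Ctrl, 38.0% for HHcy and 62.6% for WD.

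The receptors were split between macrophages and neutrophils. C3ar1, the receptor of C3a, was highest in resident-like macrophages (441, 449 and 470 CPM) and Trem2+ foamy-like macrophages (384, 429 and 465 CPM). Cavity-like macrophages had 156, 172 and 195 CPM and Gpnmb foamy-like cells 166, 137 and 177. Resident-like and Trem2+ foamy-like cells had overlapping intervals in the library labelled HHcy (421 to 479 and 398 to 461 CPM) and in WD (449 to 493 and 451 to 479), and resident-like cells were higher in the control (415 to 468 and 363 to 406).

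Monocytes and neutrophils had almost no C3ar1. Non-classical monocyte-like cells were at 8.09, 11.1 and 17.9 CPM, against 8.29, 7.74 and 15.9 in T cells, and neutrophils were at 5.71, 7.09 and 11.4. C3ar1 was seen in 71.1%, 85.1% and 83.8% of resident-like cells and in 2.52%, 2.96% and 4.42% of B cells. Thinned to 1000 UMIs, the shares were 32.1%, 38.5% and 37.1%, and 0.505%, 0.388% and 0.491%.

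C5ar1, the receptor of C5a, was expressed by neutrophils as well. Neutrophils led by Cstdc4 had 593, 587 and 523 CPM and those led by Camp and Ngp 221, 226 and 228, so that the receptor ran opposite to C3 between these clusters. Resident-like macrophages had 426, 394 and 371 CPM, Trem2+ foamy-like 241, 265 and 239, and cavity-like 177, 193 and 178. Non-classical monocyte-like cells had 131, 158 and 123 CPM and classical ones 67.4, 91.2 and 66.3. B cells were at 2.54, 3.61 and 4.57 CPM. Among the 6 plotted macrophage and monocyte clusters, resident-like cells were the highest and classical monocyte-like cells the lowest in every library.

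Many macrophages carried RNA of both receptors. C3ar1 and C5ar1 were detected together in 56.8%, 71.9% and 72.6% of resident-like cells, in 72.6%, 68.0% and 72.9% of Trem2+ foamy-like cells and in 60.2%, 79.2% and 80.5% of cavity-like cells. These shares rise with depth, and the median depth of resident-like cells was lowest in the control, at 4750 UMIs.

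**Figure D3:**
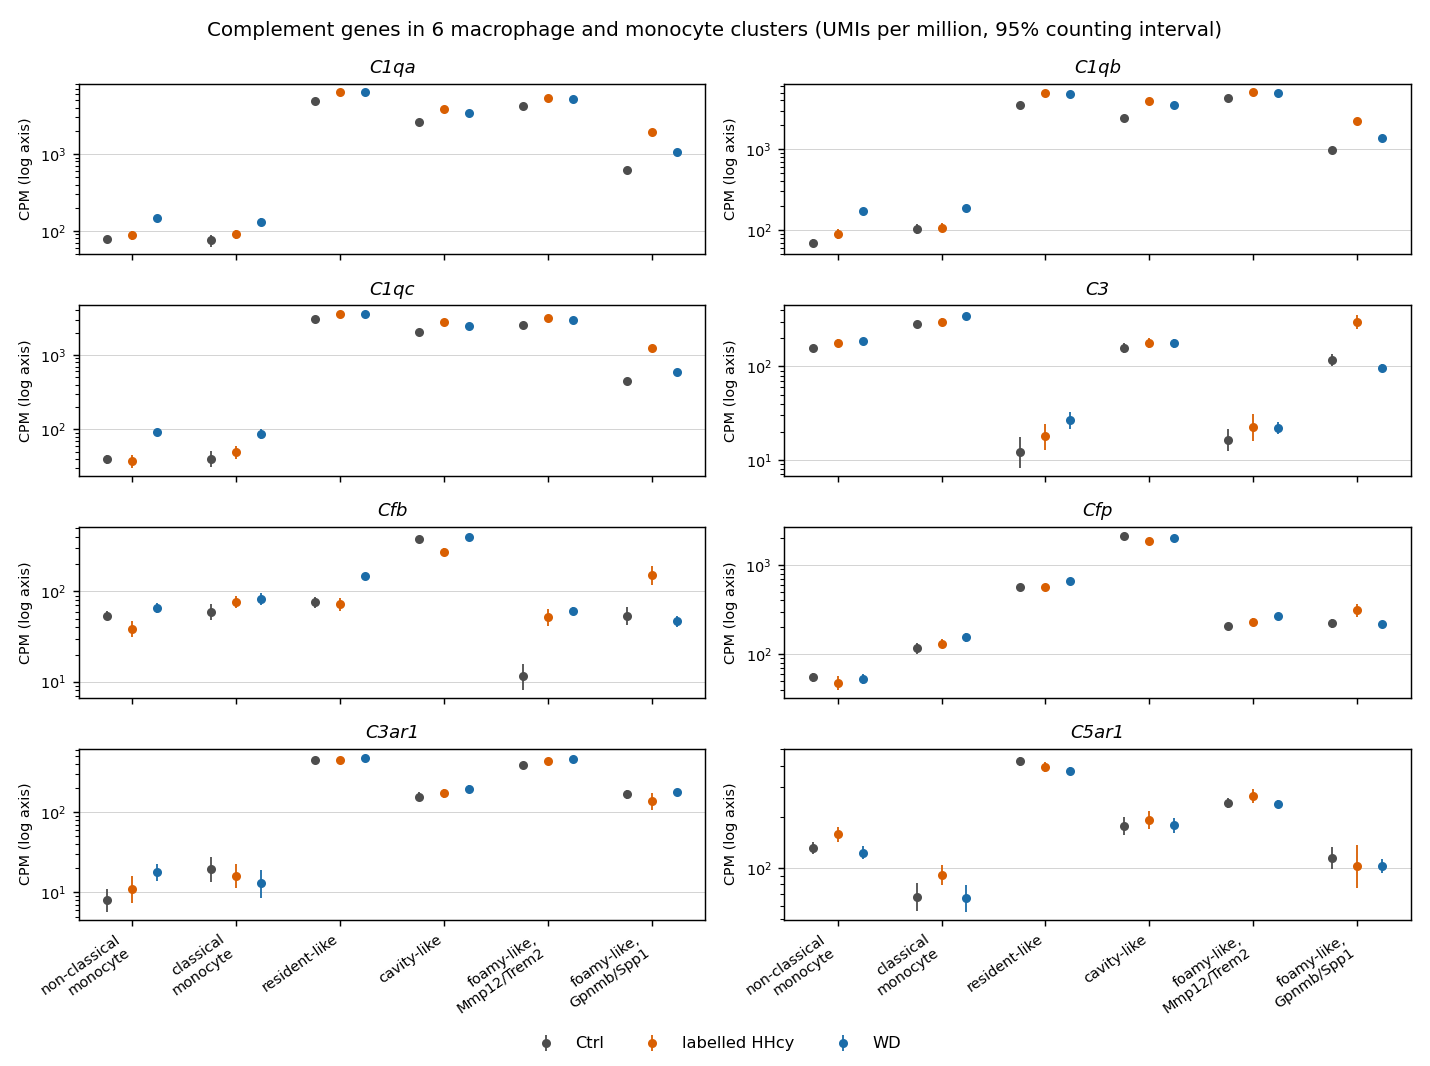
Level of each of the 8 genes in 6 macrophage and monocyte clusters, in CPM on a log axis, with 1 point per library and bars for exact Poisson 95% intervals. Resident-like and Trem2+ foamy-like macrophages hold the most C1q and C3ar1, cavity-like macrophages the most Cfp, and classical monocyte-like cells more C3 than resident-like macrophages.

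Both comparisons between groups used the same control library, so they are given side by side without a measure of their likeness. A gene was called higher or lower when it passed 1.5-fold, its exact conditional binomial interval excluded no change, and it had at least 20 UMIs over both libraries. In macrophage/monocyte-like cells, WD over control, 4 of the 8 genes were called higher and 0 lower, where 3.82% of 13089 genes tested were called higher and 3.64% lower. The 4 were C1qa, C1qb, C1qc and C3ar1. Their log2 ratios were 0.75, 0.74, 0.59 and 0.62, and the median of the 8 was 0.49 against -0.01 over all genes tested. The 3 C1q genes are neighbours that moved together and are not independent of each other.

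C1qa stood at 1924, 2623 and 3226 CPM in the class, C1qb at 1785, 2353 and 2979, and C1qc at 1237, 1591 and 1861. All 3 were lowest in the control and highest under WD. Summed C1q was 1.63-fold higher under WD (95% interval 1.62 to 1.64) and 1.33-fold higher in the library labelled HHcy (1.31 to 1.34). C3ar1 stood at 182, 194 and 279 CPM, 1.54-fold higher under WD (1.48 to 1.60). C5ar1 stood at 193, 209 and 196 CPM and Cfp at 417, 469 and 413, and neither passed 1.5-fold. C3, at 105, 139 and 93.2 CPM, and Cfb, at 75.2, 87.2 and 98.9, did not pass it either.

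The make-up of the class differed between the libraries. Trem2+ foamy-like cells, rich in C1q and C3ar1, numbered 288 of 2008, 169 of 1243 and 796 of 2703 cells, and non-classical monocyte-like cells, poor in both, 639, 291 and 516. With every library given the same mix of clusters, the log2 ratio of summed C1q was 0.36 for WD and 0.36 for the library labelled HHcy, and that of C3ar1 under WD was 0.24. None of the 8 genes was then called. Within the resident-like, Trem2+ foamy-like and cavity-like clusters, summed C1q was above the control in both libraries. In resident-like cells it was 1.30-fold higher in the library labelled HHcy (1.28 to 1.32) and 1.28-fold under WD (1.26 to 1.30), and in Trem2+ foamy-like cells 1.24-fold (1.22 to 1.26) and 1.20-fold (1.18 to 1.21). In cavity-like cells it was 1.48-fold (1.44 to 1.51) and 1.32-fold (1.29 to 1.35) higher. Without cells of 10 or more Apoe UMIs, the log2 ratio in the library labelled HHcy was 0.33 in place of 0.31 in Trem2+ foamy-like cells and 0.47 in place of 0.56 in cavity-like cells. In resident-like, Trem2+ foamy-like and cavity-like cells these differences in summed C1q exceed counting error and stay under 1.5-fold. C1qa of Gpnmb foamy-like cells, at 617, 1957 and 1051 CPM, was called higher in both comparisons. Both of its ratios were negative with each library clustered on its own. In the unnamed macrophage cluster led by Apoc2, Fcgr4 and Sirpb1c, summed C1q stood at 4670, 5193 and 7009 CPM. It just passed the limit under WD (1.46 to 1.54) and was called higher, as was C1qa there. The cluster led by Retnla and Lyz1 went the other way in the library labelled HHcy: summed C1q stood at 1213, 848 and 1665 CPM, 0.699-fold that of the control there (0.614 to 0.795) and 1.37-fold under WD (1.23 to 1.53). In cycling macrophage-like cells, 35, 18 and 91 in number, it stood at 5562, 2450 and 7526 CPM. Of the single chains in cavity-like cells, C1qb, at 2415, 3911 and 3510 CPM, passed the limit in the library labelled HHcy with 1.62-fold (1.55 to 1.69). There 44.2% of cavity-like cells had 10 or more Apoe UMIs, and without them its log2 ratio was 0.58 in place of 0.70.

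The low C1q level of B cells, T cells and neutrophils rose in WD by more than C1q within macrophages. Summed C1q in B cells was 1.99-fold that of the control under WD (95% interval 1.86 to 2.14) and 1.23-fold in the library labelled HHcy (1.15 to 1.30). In T cells the ratios were 2.04 (1.68 to 2.49) and 0.969 (0.792 to 1.19), and in neutrophils 2.58 (2.09 to 3.20) and 1.36 (1.11 to 1.69). The monocyte clusters had ratios of similar size under WD. In non-classical monocyte-like cells the ratio was 2.2 (2.02 to 2.39) under WD and 1.15 (1.03 to 1.28) in the library labelled HHcy, and in classical ones 1.86 (1.64 to 2.11) and 1.13 (0.985 to 1.29). Since their C1q lay near the T cell level in CPM, these ratios are read neither as a change in monocytes nor as its absence. The same holds for C3ar1 in non-classical monocyte-like cells: it went from 8.09 to 17.9 CPM under WD while T cells went from 8.29 to 15.9. With cells thinned to 1000 UMIs its log2 ratio was -0.56. Before thinning it rested on 39 and 70 UMIs, and thinning leaves fewer, so the sign of the thinned value is not read.

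In non-classical monocyte-like cells, 4 of 8 genes were called higher under WD (C1qa, C1qb, C1qc and C3ar1) and 0 lower, where 3.4% of all genes tested were called higher and 2.38% lower. In the library labelled HHcy, 0 were called in either direction, where 2.58% were higher and 2.34% lower. In classical monocyte-like cells, 3 were called higher under WD, the C1q chains, and 0 lower, where 3.95% were higher and 6.57% lower. None, 0 of 8, was called there in the library labelled HHcy, where 4.04% were higher and 6.08% lower. C3, which in monocytes lay above its T cell level, was 1.21-fold higher under WD in non-classical cells (1.09 to 1.34). In classical cells it was 1.22-fold (1.08 to 1.38), short of the limit in both.

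In resident-like macrophages C3 and Cfb were called higher under WD, 2 of the 8 genes with 0 lower, where 2.97% of genes tested were higher and 3.24% lower. Cfb went from 75.7 to 148 CPM, 1.95-fold (95% interval 1.65 to 2.32), and was at 72.4 CPM in the library labelled HHcy. C3 went from 12.1 to 26.7 CPM, 2.2-fold (1.44 to 3.45), a level far below that of fibroblasts. When each cell was thinned to 1000 UMIs the C3 log2 ratio was -0.48, with an interval from -1.72 to 0.74, so its direction was not set at that depth. In the library labelled HHcy, 0 of the 8 were called in resident-like cells, where 3.01% were higher and 3.66% lower. C5ar1 in these cells, at 426, 394 and 371 CPM, was 0.872-fold that of the control under WD (0.804 to 0.947), and C3ar1 was 1.07-fold (0.988 to 1.15).

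In Trem2+ foamy-like macrophages Cfb was called higher in both comparisons. Under WD it was 1 of 8 genes with 0 lower, where 3.62% of genes tested were higher and 3.38% lower, and in the library labelled HHcy likewise 1 with 0 lower, where 2.9% were higher and 3.8% lower. Cfb stood at 11.5, 51.9 and 61.2 CPM, 5.33-fold higher under WD (3.82 to 7.66). It was detected in 7.99%, 9.47% and 24.9% of cells, with at most 5, 38 and 16 UMIs in a single cell. In the library labelled HHcy the ratio of 4.52 (3.05 to 6.83) rested on few cells: without the 10 cells with most Cfb UMIs the log2 ratio was -0.09. C4b, which encodes the classical pathway's C4, stood at 38.8, 81.4 and 142 CPM in these cells, but its near-identical copy C4a makes the assignment of reads uncertain.

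In the macrophage/monocyte-like class as a whole, 0 of the 8 genes were called in the library labelled HHcy, where 3.06% of genes tested were called higher and 2.53% lower. The median log2 ratio of the 8 was 0.29, against -0.03 over all genes. Cells with 10 or more Apoe UMIs made up 14.9% of the class in that library and 30.1% of its resident-like cells. In the class, their summed C1q was 10950 CPM, against 5781 in the other cells, and without them the log2 ratio of summed C1q was 0.22 in place of 0.41. For C3 the ratio without them was 0.53 in place of 0.40, and for Cfp -0.06 in place of 0.17. In resident-like cells the levels of C1q with and without high Apoe were 14771 and 14980 CPM, and the log2 ratio without them was 0.39 in place of 0.38.

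Outside the macrophage/monocyte-like class, several genes were called higher under WD at low levels. The share of all genes called was not counted in these other classes. Whether so many calls are unusual there is therefore not known. In B cells these were the C1q chains, C3, Cfb, C3ar1 and C5ar1, among which C3 went from 2.28 to 4.47 CPM and Cfb from 1.54 to 4.17. In conventional dendritic-like cells they were C1qa, C1qb, C3, Cfb and C3ar1, and in fibroblasts C1qa, from 5 UMIs in the control. B cells are used here as a stand-in for background, so their rise is not read as expression. The part of background in the B cell and dendritic values was not tested. Dendritic-like cells of the library labelled HHcy had C1qc, C3ar1 and C5ar1 called lower and C3 called higher. C3 and Cfb of fibroblast-like cells were called higher under WD at high levels. C3 was 2.77-fold that of the control (95% interval 2.45 to 3.14) and Cfb 3.19-fold (2.35 to 4.43). C3 was seen in 33.3%, 51.8% and 69.8% of these cells, and a single cell held up to 122, 200 and 764 UMIs. The control value rested on 30 cells and 264 UMIs. In the library labelled HHcy, C3 was 1.52-fold higher (1.33 to 1.74), but with barcodes of more than 1 lineage kept the log2 ratio was -0.66 and that of WD 0.46. The direction of C3 in fibroblasts of that library therefore depended on which barcodes were kept, and whether barcodes with markers of other cells bear on the level was not tested.

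In neutrophils C3 stood at 333, 222 and 242 CPM and was called lower in the library labelled HHcy, 0.667-fold (0.575 to 0.774). With TMM scaling, which moved all neutrophil ratios of that library by 0.34, the log2 ratio of C3 was -0.25 in place of -0.59. The 2 neutrophil clusters were present in different proportions: cells led by Camp and Ngp, rich in C3, were 77 of 174, 69 of 376 and 41 of 250. Within them C3 was 0.786-fold that of the control (0.653 to 0.947), and within the Cstdc4 cluster 1.25-fold (0.916 to 1.73), so neither cluster was called. C5ar1 in neutrophils, at 387, 489 and 445 CPM, was 1.26-fold higher in the library labelled HHcy (1.12 to 1.43), and within the Cstdc4 cluster 0.989-fold (0.855 to 1.15).

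In B cells Cfp stood at 50.3, 32.9 and 58.1 CPM and was called lower in the library labelled HHcy, 0.655-fold (0.598 to 0.717). The largest B cell cluster, led by Fcer2a, held 651 of 2179, 2528 of 3613 and 444 of 1222 cells, and within it the levels were 28.8, 18.9 and 21.4 CPM. In immature B cell-like cells, with the most Cfp, the ratio under WD was 1.02 (0.867 to 1.19), and it was 0.839 in the library labelled HHcy (0.704 to 0.998). In T cells Cfp stood at 47.0, 18.6 and 23.8 CPM and was called lower in both comparisons, from 34, 24 and 18 UMIs.

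Gpnmb foamy-like cells had high ratios for C1q, C3 and Cfb in the library labelled HHcy but were few, with 105, 34 and 257 cells. Summed C1q went from 2053 to 5419 CPM in the library labelled HHcy, 2.64-fold (2.50 to 2.78), C3 from 118 to 301 and Cfb from 53.8 to 152. With the 3 libraries clustered separately, the log2 ratio of summed C1q in the matching cluster was -0.85, and without the 10 cells with most Cfb UMIs that of Cfb was -2.84. The values of this cluster in the library labelled HHcy thus depended on which cells were placed in it.

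**Figure D4:**
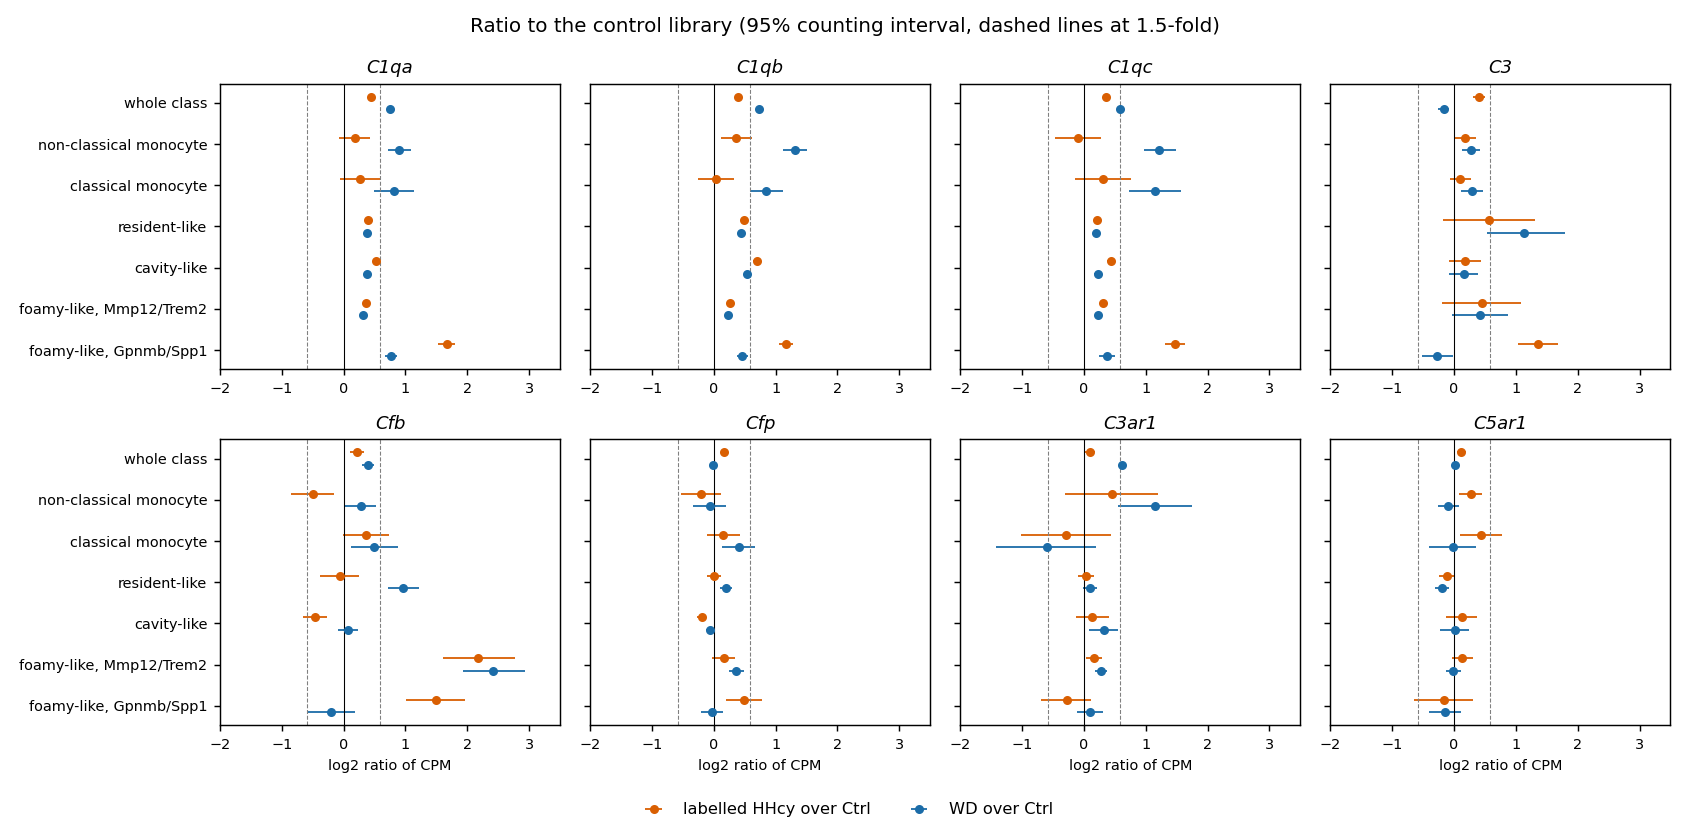
Log2 ratio of CPM over the control of each of the 8 genes in the macrophage/monocyte-like class and in 6 of its clusters, with exact conditional binomial 95% intervals, 1 colour for each compared library and dashed lines at 1.5-fold. Cfb of Trem2+ foamy-like macrophages lies farthest to the right, at 2.18 in the library labelled HHcy and 2.42 under WD. The value of the library labelled HHcy rested on few cells and did not keep its direction without them.

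Of 54 other complement genes, chosen as a list, 23 reached 50 CPM in a group of at least 50 cells in some library. The same count was not made over all 32285 genes. In sums over classes alone, without clusters, 5706 of them reached that level. By role these were 7 of 16 genes that start the classical and lectin pathways, 0 of 3 of the alternative start, 1 of 7 terminal components, 4 of 9 soluble regulators, 2 of 8 membrane regulators and 9 of 11 receptors. Mbl1 and Mbl2, the mannose-binding lectins, had 0 UMIs. Fibroblast-like cells under WD had the highest level of Serping1, the C1 inhibitor, at 2382 CPM. The same cells led for the C1 proteases C1s1 (648 CPM) and C1ra (464 CPM), whose reads may be shared with C1s2 and C1rb. Cavity-like macrophages led for C4b under WD (2447 CPM) and for Vsig4, a receptor of C3 fragments, at 220, 468 and 205 CPM. Of these cells, 44.2% in the library labelled HHcy had 10 or more Apoe UMIs. Cr2, the B cell receptor of C3 fragments, reached 242 CPM in the Fcer2a B cell cluster.

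In macrophage/monocyte-like cells, 7 of 27 of these other genes that could be tested were called higher in the library labelled HHcy (Fcna, Fcnb, Colec12, C6, Cr2, Vsig4 and C5ar2) and 0 lower, where 3.06% of all genes were higher and 2.53% lower. Without cells of 10 or more Apoe UMIs, 4 were called: Fcna, Vsig4 and C5ar2 no longer passed. Under WD, 4 of 29 were called higher (C2, C6, Serping1 and Clu) and 2 lower (Cfd and Cr2), where 3.82% and 3.64% of all genes were. Cr2 in macrophages, at 1.29, 2.97 and 0.499 CPM, lay at or under its level in T cells (1.38, 6.19 and 2.65 CPM). Its calls are therefore not read as expression, and whether they reflect background was not tested. Serping1 (0.728, 1.07 and 2.40 CPM) and Clu (1.29, 1.73 and 4.72) in macrophages were likewise no higher than in neutrophils (1.14, 1.89 and 2.85, and 3.43, 4.26 and 10.5). In resident-like macrophages C6, a part of the membrane attack complex, stood at 21.3, 32.4 and 75.4 CPM, 3.54-fold higher under WD (2.62 to 4.86). Fcna, the gene of ficolin A, a lectin that starts the cascade on sugars, stood at 202, 343 and 250 CPM in these cells, 1.70-fold higher in the library labelled HHcy (1.51 to 1.91), and 1.49-fold (1.31 to 1.70) without cells of 10 or more Apoe UMIs. C2, the protease of the classical convertase, stood at 28.9, 27.3 and 52.3 CPM, 1.81-fold higher under WD (1.37 to 2.42).

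The genes most like each complement gene were found by Pearson's r of log2(CPM + 1) over 17 sums of a class in a library, with 5706 genes compared. These sums share libraries and cells, and r is given as a description. For summed C1q the nearest genes were Ms4a7 (0.986), Fcrls (0.979) and Stab1 (0.979), and for C3ar1 Trem2 (0.985), Ms4a7 (0.982) and Stab1 (0.975). For C5ar1 they were Pilra (0.993), Cxcl2 (0.987) and Gm31814 (0.986), and for Cfp Plekho2 (0.965), Gsdmd (0.944) and Cd68 (0.943). C3 was nearest to Lbp (0.973), F3 (0.972) and Ctsl (0.965), and among the genes nearest to Cfb were Igf1 (0.976) and Mir99ahg (0.976). Between the complement genes themselves, r was 0.995 for C3ar1 with summed C1q, 0.744 for C3 with Cfb and 0.091 for summed C1q with C3.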

How the data were processed

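The authors' deposited matrices hold raw UMI counts per gene and cell barcode, without normalization, from 3 libraries made, per the labels' protocols, with Chromium 3′ reagents (version 3). Cell Ranger 4.0.0 wrote them per the file headers, whereas the submitters' processing notes name version 2.2.0 and the build mm10. The files held 0 columns outside the series.

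Barcodes with under 200 genes or over 10% mitochondrial UMIs were left out, as were those with markers of 2 or more of 5 lineages (5 markers for B, 4 for T or NK, 8 for myeloid, 7 for neutrophil and 5 for stromal cells), counted as doublets: 11.0%, 21.7% and 21.1%. Doublets within a lineage were not removed. Cells were clustered together without batch correction (2000 variable genes, 30 principal components, 20 neighbours, Leiden resolution 1.0, seed 1, leidenalg 0.10.2), giving 31 clusters. A cluster was named, as "like" a cell type, from at least 3 markers detected in 25% of its cells, and 8 clusters stayed unnamed. Complement genes were kept out of variable genes and markers. UMIs were summed per class or cluster and library. Intervals are exact at 95% (Poisson for sums, Clopper-Pearson for shares, conditional binomial for ratios; scipy 1.17.1) and cover counting error, not the spread between mice. The limit of a count of 0 was set at 3 counts. The ratio calculation was tested on simulated data.

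Genes named are the 8 complement genes. Of other complement genes, those with at least 50 CPM in a group of at least 50 cells were eligible, and the ones with the largest values or ratios were named. For each complement gene, the 3 genes with the highest correlation were also named. The values of 1 gene are not reported here. Apoe and Ptprc check the labels. The 8 genes, the lists and the alternatives were chosen with earlier results of these data known, and the lineage limits, the naming limits, the promoter motifs and the count of other complement genes without cells rich in Apoe after the data were examined. Empty droplets were not analysed here.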

Additional observations from a re-analysis of the deposited data

Results flagged for a closer look

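For 4 genes, ratios of the library labelled HHcy over the control pointed in opposite directions in different cells. The differences were not tested, since each group had 1 library, and each interval covers counting error only. C1qa had a log2 ratio of 1.66 in Gpnmb foamy-like macrophages and -1.15 in type 1 conventional dendritic-like cells. C1qb stood at 1.17 and -1.04 in the same cells, and C1qc at 1.47 and -0.98. C3 stood at 1.36 in Gpnmb foamy-like macrophages and -0.59 in neutrophil-like cells. The Gpnmb cluster held 105 cells in the control and 34 in the library labelled HHcy. With each library clustered on its own, the ratios of the C1q chains in the matching cluster were negative, so the opposition was not kept. The neutrophil-like value of C3 was nearer to no change with TMM scaling. The type 1 dendritic cluster held 172 and 107, and its summed C1q was 636 and 304 CPM, against 214 and 207 CPM in T cells.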

How the results depend on the processing

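The log2 ratio of summed C1q in macrophage/monocyte-like cells kept its direction under every alternative tried. In the library labelled HHcy it was 0.41, with 0.43 at up to 20% mitochondrial UMIs, 0.23 with barcodes of more than 1 lineage kept, 0.49 with each library clustered on its own, 0.44 with cells named singly by markers, 0.43 with TMM scaling, 0.54 with cells thinned to 1000 UMIs, 0.36 with the same mix of clusters, 0.22 without cells with 10 or more Apoe UMIs and 0.52 as a mean over cells. Under WD it was 0.71, with 0.72 at 500 or more genes, 0.78 with those barcodes kept, 0.74 at Leiden resolution 2, 0.72 clustered separately, 0.72 with TMM, 0.72 thinned, 0.36 with the same mix, 0.74 without the 10 cells with most C1q UMIs and 0.74 as a mean over cells. The 4 complement genes called higher under WD became 0 with the same mix of clusters.

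Directions were reversed for C3 in fibroblasts of the library labelled HHcy (-0.66 with barcodes of more than 1 lineage kept). With thinning, C3ar1 in non-classical monocytes (-0.56) and C3 in resident-like cells (-0.48) had negative values under WD. Before thinning these rested on 39 and 70 UMIs for C3ar1 and 29 and 99 for C3, in the control and WD. Thinning leaves fewer UMIs, and the thinned interval of C3 included no change, so these values do not set a direction. Cfb in Trem2+ foamy-like cells of the library labelled HHcy was -0.18 with those barcodes kept, -1.32 at resolution 2, -1.84 clustered separately and -0.094 without its top 10 cells. In Gpnmb foamy-like cells clustered separately, C1qa was -0.80, C1qb -0.89, C1qc -0.83 and summed C1q -0.85 in the library labelled HHcy, and C1qa -0.33 under WD. Cfb there was -2.84 without its top 10 cells. The cause was not tested. No paired analysis was possible because each group had 1 library. For the same reason no library could be left out. TMM moved all ratios of neutrophils by 0.34 and 0.12, those of fibroblasts by 0.07 and 0.12, and those of the macrophage/monocyte-like class by 0.02 in each comparison.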
